A study of Arabidopsis thaliana with 8 samples.

Results

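The seed transcriptome of *pkr2-2*, the T-DNA insertion line SALK_115303 of *PICKLE RELATED 2* (*PKR2*), was set against that of its wild-type background Col-0. The comparison takes 4 of the 8 samples of the series, 2 biological replicates of each genotype, and all 38209 genes listed in the table that holds them. Plants grew under 16 h of light and 8 h of darkness, and 30 or more siliques were opened for the seeds of each replicate. The harvest is given as 4 days after pollination in the sample labels and as 3 in the extraction protocol, and its hour is not given in the sources used here. The other 4 samples are seeds of *pkl-1*, mutated in *PICKLE* (*PKL*), and of the double mutant *pkr2-2;pkl-10*, which carries the same *PKR2* insertion with another *PKL* allele. Each mutant line is in Col-0.

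PKR2 and PKL are chromatin remodelers of the CHD3 class, ATP-driven enzymes that reposition nucleosomes. PKL is known for keeping embryonic and Polycomb-regulated genes silent in seedlings. In Arabidopsis, *PKR2* is expressed mainly in the young seed, which at this stage holds an embryo, an endosperm that nourishes it and a maternal seed coat.

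Levels are given in FPKM, the number of sequenced fragments scaled to the length of the transcript and to the depth of the library. The authors pooled both replicates of a genotype into a single FPKM value, so no value has an error between replicates, no test could be made, and a difference described below may lie within the spread between replicates. A difference is the log2 of (*pkr2-2* FPKM + 1) over (Col-0 FPKM + 1), which understates the change of genes with low levels. Genes with a mean of at least 1 FPKM over both genotypes counted as measured, and those with a log2 difference of at least 1 in size are called at least 2-fold higher or lower. A gene under 1 FPKM in 1 genotype passes this filter only through its level in the other. From the steps of the lowest values, the pooled libraries held about 37100000 fragments on transcripts of at least 600 nucleotides in Col-0 and 34600000 in *pkr2-2*. Fold values are ratios of FPKM, with a 95% interval that covers counting error only. The gene lists used below were chosen with earlier results of these data known, so the shares of their members are descriptions only.

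*PKR2* itself (AT4G31900, chromosome 4 of TAIR10.1, 15431350 to 15438678, a gene of the CHD remodelers) was at 3.06 FPKM in Col-0 and 0.168 FPKM in *pkr2-2*. This is 18.2-fold lower (11.96 to 29.0), with a log2 difference of -1.80. *PKL* stayed at a like level, 11.7 FPKM in Col-0 and 10.8 FPKM in *pkr2-2*, and the remaining remodelers *CHR4* and *CHR5* differed by 0.03 and 0.13. The genes beside *PKR2* on the chromosome, AT4G31890 and *BAT1*, differed by 0.03 and 0.17.

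The young-seed identity of the samples was checked with marker genes. Endosperm markers were present in both genotypes, among them *PHE1* at 54.6 and 46.8 FPKM in Col-0 and *pkr2-2*. Seed coat markers were high, with *STK*, a MADS-box regulator of ovule and seed coat identity, at 403 and 489 FPKM. Embryo markers were low, with a summed level of 17.2 FPKM in Col-0 and 12.1 FPKM in *pkr2-2* over 8 genes, of which 1 was at 0 in both. The 9 endosperm markers summed to 151 and 122 FPKM and the 8 seed coat markers to 1211 and 1323 FPKM. None of these 3 lists held a gene at least 2-fold apart, and their medians were -0.33 for embryo, -0.22 for endosperm and 0.28 for seed coat. The 6 pollen markers summed to 1.59 FPKM in Col-0 and 5.10 FPKM in *pkr2-2*. Of these, 1 was measured, AT5G45880, at 0.352 FPKM in Col-0 and 2.32 FPKM in *pkr2-2*. The leaf and fruit wall markers summed to 8316 and 6020 FPKM. Of the 8, 1 (12.5%, against 2.9% of all measured genes) was at least 2-fold higher, the fruit regulator *AGL8*, at 0.644 against 2.51 FPKM. AT5G45880 and *AGL8* passed the filter only through their levels in *pkr2-2*. In whole seeds, fewer cells of a type and less RNA per cell cannot be told apart, and the part of these shifts in the results below was not tested.

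Of 17531 measured genes, 508 (2.9%) were at least 2-fold higher in *pkr2-2* and 330 (1.88%) at least 2-fold lower, together 4.78%. The median difference was 0.02, and 82.7% of measured genes lay within 0.5 of 0. Short transcripts took a large part of the extremes. Under 600 nucleotides, 18.4% of 870 measured genes were at least 2-fold higher and 13.1% at least 2-fold lower (31.5% together), whereas among 16661 longer transcripts the shares were 2.09% (348 genes) and 1.3% (216 genes), together 3.39%. Of the 20 largest differences among genes with a mean of at least 5 FPKM, 18 belonged to transcripts under 300 nucleotides and 17 to genes listed at 0 in one genotype. They included the spliceosomal RNA *U5.6* (0 FPKM in Col-0 and 1124 in *pkr2-2*) and the chloroplast photosystem II gene *psbK* (148 in Col-0 and 0 in *pkr2-2*). In both the remaining genes, *SADHU3-2* and AT3G12510, the transcript was longer than 600 nucleotides, and the genes named below come from these longer transcripts unless stated.

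*SADHU3-2* (AT3G42658), a Sadhu element, which is a non-autonomous retroposon, had the largest decrease among longer transcripts. It was at 92.7 FPKM in Col-0 and 2.16 FPKM in *pkr2-2*, 42.9-fold lower (32.8 to 57.3). The highest log2 difference, that of the MADS-box family gene AT3G12510 (0.00962 FPKM in Col-0 and 27.7 FPKM in *pkr2-2*), is uncertain. Its span is covered for 94.5% by the antisense RNA gene AT3G02535, listed at 53.3 FPKM in Col-0 and 20.6 FPKM in *pkr2-2*. Use of strand is not stated, so reads from both genes cannot be told apart and no direction is drawn. Such overlap of at least 50% of the span with another measured gene was found in 13 (3.74%) of the longer transcripts at least 2-fold higher, 15 (6.94%) of those lower and 1.4% of all. AT3G50610 was near 0 in Col-0 (0.0329 FPKM) and at 13.3 FPKM in *pkr2-2*. *QQS*, an orphan gene known for setting starch content, was at 0.318 and 10.11 FPKM. The other measured transposable element genes differed by less than *SADHU3-2*. Of 24 measured, 2 (8.33%, against 1.88% of all measured genes) were at least 2-fold lower, none was higher, and the median was -0.20. Beside *SADHU3-2*, the lower one was AT1G49680, with a transcript of 300 nucleotides, at 3.11 FPKM in Col-0 and 0 FPKM in *pkr2-2*. Among longer transcripts it was 1 of 23.

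**Figure D1:**
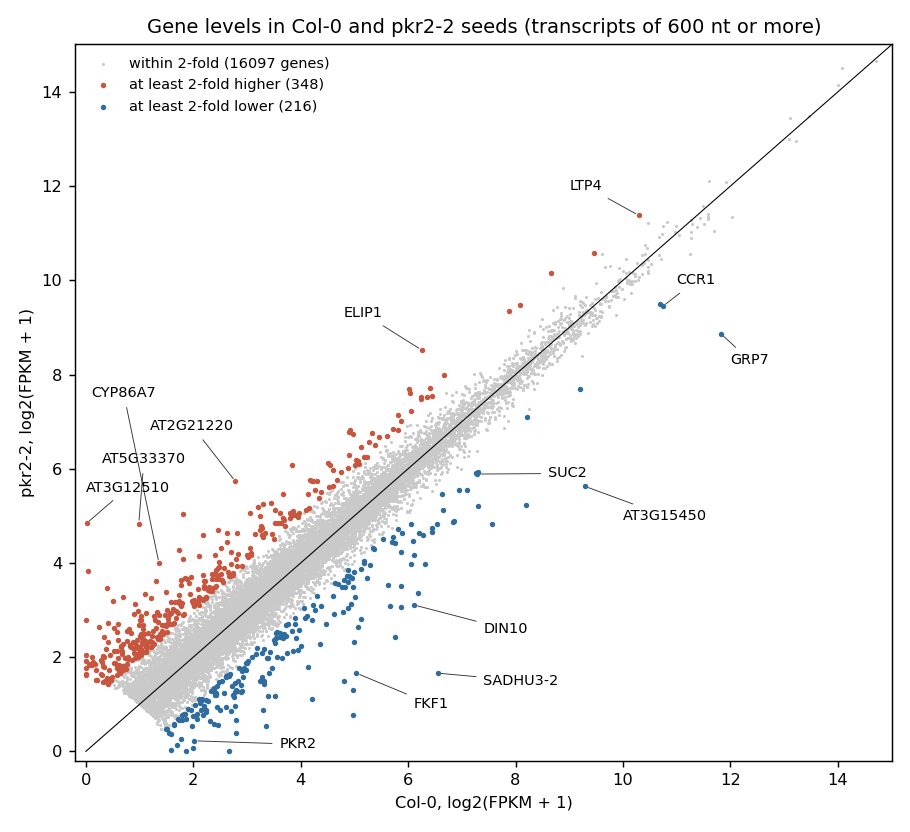
Level of each measured gene with a transcript of 600 nucleotides or more in Col-0 (x axis) and *pkr2-2* (y axis), as log2(FPKM + 1), with 1 point per gene. Most genes lie on the line of equal level, 348 lie at least 2-fold above it and 216 at least 2-fold below, with *GRP7*, AT3G15450 and *SADHU3-2* far below it and AT5G33370 far above. AT3G12510 overlaps an antisense gene and is uncertain.

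Of all lists with 5 or more measured genes, the one with the lowest median was the evening-phased part of the circadian clock. The plant clock is a loop in which the morning factors CCA1 and LHY repress evening genes such as *TOC1*, and the evening products in turn repress the morning genes. Many evening genes carry the evening element, AAAATATCT, in their promoters, which CCA1, LHY and the related RVE proteins bind. All 8 measured evening genes were below Col-0, 6 of them (75%, against 1.88% of all measured genes) at least 2-fold, with a median of -1.35. *FKF1*, which encodes a blue-light sensing F-box protein, was at 31.8 FPKM in Col-0 and 2.16 FPKM in *pkr2-2*, 14.7-fold lower (12.5 to 17.3). *TOC1* was at 13.4 and 3.35 FPKM, 4.00-fold lower (3.55 to 4.53). *PRR5*, another pseudo-response regulator, was at 9.53 and 2.93 FPKM. Among genes of the evening complex, *PCL1* (also called *LUX*) was at 30.2 and 11.8 FPKM and *ELF4* at 15.8 and 7.26 FPKM. *BOA*, the close relative of *PCL1*, was at 5.82 and 0.940 FPKM. *GI* (14.6 and 7.21 FPKM) and *ELF3* (7.84 and 5.21 FPKM) were lower by less than 2-fold on the log2 scale used, at -0.93 and -0.51.

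The promoters of evening genes that were lower are shown because the motif lies within them. Each is the 300 bases before the annotated start of the gene, read 5′ to 3′ on the gene's strand from RefSeq TAIR10.1, and capitals mark the evening element or its reverse complement. None of these 4 windows overlaps another annotated gene.
FKF1, chr1:25508339-25508638, plus strand: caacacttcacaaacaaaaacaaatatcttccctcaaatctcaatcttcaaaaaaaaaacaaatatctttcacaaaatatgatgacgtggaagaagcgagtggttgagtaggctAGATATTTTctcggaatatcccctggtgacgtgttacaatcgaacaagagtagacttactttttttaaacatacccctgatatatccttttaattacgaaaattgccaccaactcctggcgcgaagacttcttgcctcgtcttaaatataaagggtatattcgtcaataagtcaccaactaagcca
TOC1, chr5:24674663-24674962, plus strand: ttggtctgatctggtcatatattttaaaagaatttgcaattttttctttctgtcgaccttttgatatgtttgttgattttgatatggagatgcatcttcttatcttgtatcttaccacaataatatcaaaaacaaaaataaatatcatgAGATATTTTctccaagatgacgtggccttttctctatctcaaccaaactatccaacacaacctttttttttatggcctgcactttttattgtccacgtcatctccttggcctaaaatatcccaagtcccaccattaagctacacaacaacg
PRR5, chr5:8358547-8358846, minus strand: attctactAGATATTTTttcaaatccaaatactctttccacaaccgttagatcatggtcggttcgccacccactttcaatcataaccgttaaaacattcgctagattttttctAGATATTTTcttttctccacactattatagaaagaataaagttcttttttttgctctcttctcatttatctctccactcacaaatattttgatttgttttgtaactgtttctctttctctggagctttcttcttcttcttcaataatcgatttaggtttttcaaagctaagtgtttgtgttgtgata
BOA, chr5:24003588-24003887, plus strand: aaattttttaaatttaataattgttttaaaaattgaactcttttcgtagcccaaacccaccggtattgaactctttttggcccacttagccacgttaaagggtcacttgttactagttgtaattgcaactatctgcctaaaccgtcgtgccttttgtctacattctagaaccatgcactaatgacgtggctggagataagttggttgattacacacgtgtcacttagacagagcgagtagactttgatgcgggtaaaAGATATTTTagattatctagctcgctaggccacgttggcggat

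In *FKF1* the element begins 186 bases before the gene, in *TOC1* 151, in *BOA* 43, and in *PRR5* there were copies at 292 and 187 bases. Of the 8 evening genes, 5 held the evening element in this window. Among all longer transcripts at least 2-fold lower, 22 of 216 (10.2%) held AAAATATCT on either strand, against 10 of 348 (2.87%) of those at least 2-fold higher and 501 of 16622 (3.01%) promoters of all measured longer transcripts. The 22 included *COR27* (16.6 and 2.47 FPKM), a cold- and light-regulated clock-associated gene with copies at 39 and 20 bases. They also included *PORB*, which encodes a chlorophyll synthesis enzyme, at 86.3 and 24.2 FPKM, *CCL* at 115 and 28.6 FPKM and *PDC2*, a pyruvate decarboxylase gene, at 65.7 and 27.6 FPKM. The windows of *PORB*, *CCL* and *PDC2* each overlap 1 other annotated gene. For the 3 other motifs, searched on both strands, the shares lay closer together, and none of the 4 motifs contains another. The CCA1-binding site AAAAATCT was in 10.2% of lower, 9.48% of higher and 8.36% of all promoters, and the G-box CACGTG in 10.2%, 8.62% and 8.03%. The DRE core CCGAC was in 9.72%, 14.9% and 14.8%. A match of letters is a description and not a shown binding site.

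Of 10 measured morning-phased genes, 1 was at least 2-fold higher (10%, against 2.9% of all measured genes) and none lower. Their median was 0.53, with 7 above Col-0 and 3 below. *PRR9* was at 1.09 FPKM in Col-0 and 3.28 FPKM in *pkr2-2*. *CCA1* was at 1.697 and 3.53 FPKM and *LHY* at 1.301 and 2.54 FPKM, and neither reached the 2-fold call. In contrast, *RVE1*, which links the clock to auxin synthesis, was at 3.77 and 1.69 FPKM. All morning genes were under 12 FPKM in both genotypes.

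Among output genes of the clock, *GRP7* (AT2G21660), a glycine-rich RNA-binding protein gene, lost more FPKM than any other quantified gene. It was at 3630 FPKM in Col-0 and 464 FPKM in *pkr2-2*, 7.82-fold lower (7.70 to 7.95). Its relative *CCR1* (AT4G39260) was at 1711 and 698 FPKM, 2.45-fold lower (2.42 to 2.49). The CDF genes, which encode repressors of flowering that FKF1 marks for degradation, lay above Col-0. *CDF3* was at 5.41 and 12.1 FPKM, *CDF1* at 3.06 and 5.78 FPKM and *CDF2* at 3.72 and 4.11 FPKM, of which only *CDF3* passed 2-fold. *CO*, a target that these repressors hold down, was at 1.99 and 0.697 FPKM. The 10 measured output genes thus split. At least 2-fold higher was 1 (10%, against 2.9% of all measured genes) and at least 2-fold lower 2 (20%, against 1.88%). Since the hour of harvest is not given, the part of the time of day in these differences was not tested. The same holds for the starvation, sugar and light-related genes described below.

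**Figure D2:**
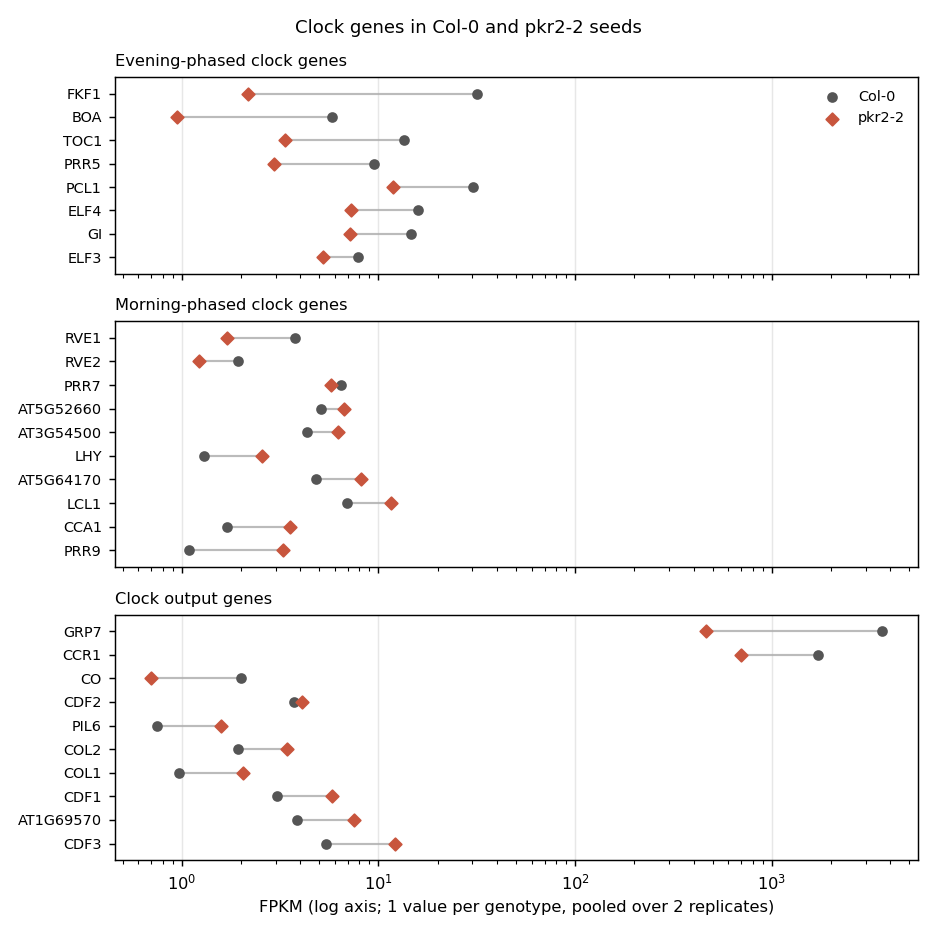
FPKM on a log axis of measured evening-phased, morning-phased and output genes of the clock, with a circle for Col-0 and a diamond for *pkr2-2* (1 pooled value each). The diamonds lie left of the circles for all 8 evening genes and for *GRP7*, *CCR1* and *CO*, and right of them for 7 of 10 morning genes.

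Of genes known to be induced when plant cells run short of sugar, a large share was at least 2-fold lower in *pkr2-2*. Of 21 measured members of a carbon starvation list, 9 (42.9%) were at least 2-fold lower and none was higher, where 1.88% of all measured genes were lower, and 20 of 21 lay below Col-0 (median -0.69). AT2G33830, annotated as a dormancy/auxin associated gene, was at 30.4 FPKM in Col-0 and 0.717 FPKM in *pkr2-2*, 42.3-fold lower (26.9 to 70.6). Its relative *DYL1* was at 31.0 and 4.00 FPKM. AT1G80440, a kelch repeat gene, was at 30.6 and 1.45 FPKM, and *DIN10*, a dark-inducible raffinose synthase family gene, at 68.1 and 7.62 FPKM. *BGAL4*, a beta-galactosidase gene, was at 57.6 and 10.4 FPKM. These 5 genes were each at least 5-fold lower by ratio.

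Class II trehalose phosphate synthase genes, which respond to sugar status, belonged to the same list. *TPS8* was at 5.94 and 1.47 FPKM, *TPS9* at 3.59 and 0.945 FPKM and *TPS11* at 10.5 and 3.94 FPKM, all at least 2-fold lower, while *TPS10*, at 8.90 and 5.32 FPKM, was not. The beta-glucosidase gene *DIN2* was just past the call at 18.7 and 8.77 FPKM. Branched-chain amino acid breakdown genes of the list were lower by less, with *MCCA* at -0.44, *IVD* at -0.45 and *BCAT-2* at -0.44 on the log2 scale. *ASN1*, the asparagine synthetase gene usually induced by darkness, was low in both genotypes (1.48 and 0.905 FPKM). The exception was *ERD5*, which encodes proline dehydrogenase, at 417 and 493 FPKM.

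Several further genes with the largest decreases had not been placed on any list. AT3G15450, annotated with the YGL and LRDR motifs, was at 625 FPKM in Col-0 and 48.4 FPKM in *pkr2-2*, and AT3G10020 at 291 and 36.6 FPKM. *MEE14* was at 53.1 and 4.39 FPKM, AT1G11210 at 27.1 and 1.81 FPKM and AT3G15630 at 71.6 and 9.23 FPKM. The mannose-binding lectin genes AT1G78850 and AT1G78830 were at 17.44 and 1.17 FPKM and at 57.2 and 7.33 FPKM. These lie close together on chromosome 1 and are of related families, so reads may be shared between them. AT5G19120, an aspartyl protease gene, was at 188 and 27.6 FPKM, and *JMJD5*, a clock-associated histone demethylase family gene, at 10.5 and 1.26 FPKM. At high level, *RD19*, a papain-type protease gene, was at 1643 and 719 FPKM, and AT1G73600, a methyltransferase gene, at 584 and 207 FPKM (both chosen after their values were seen).

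Of genes that bring sugar to the seed or cleave it there, 2 of 7 measured were at least 2-fold lower (28.6%, against 1.88% of all measured genes). Sucrose arrives through the phloem, leaves the seed coat through SWEET exporters and is split by invertase or sucrose synthase. All 7 lay below Col-0 (median -0.75). *SUC2*, the phloem-loading sucrose symporter gene, was at 155 FPKM in Col-0 and 58.2 FPKM in *pkr2-2*, 2.67-fold lower (2.57 to 2.77). *SWEET11* was at 19.8 and 7.50 FPKM, *SWEET12* at 61.1 and 43.2 FPKM and *SAG29* (also called SWEET15) at 7.77 and 4.01 FPKM. The sucrose synthase gene *SUS1* was at 139 and 82.0 FPKM, and the cell-wall invertase gene *cwINV4* differed least (57.3 and 55.3 FPKM). *STP1*, a hexose importer gene outside this list, was at 49.6 and 7.51 FPKM, 6.61-fold lower (6.08 to 7.18). Not all sugar transporter genes shared this direction. *SWEET10* was at 101 and 252 FPKM, *SWEET17* at 5.28 and 13.0 FPKM and *SWEET14* at 0.0905 and 2.70 FPKM. The SWEET genes, 13 of them measured, were looked at as a family after the data were seen. In this family 3 (23.1%, against 2.9% of all measured genes) were at least 2-fold higher and 1 (7.69%, against 1.88%) lower. The summed level of the family was 654 FPKM in Col-0 and 799 FPKM in *pkr2-2*. *SWEET14* passed the filter only through its level in *pkr2-2*.

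**Figure D3:**
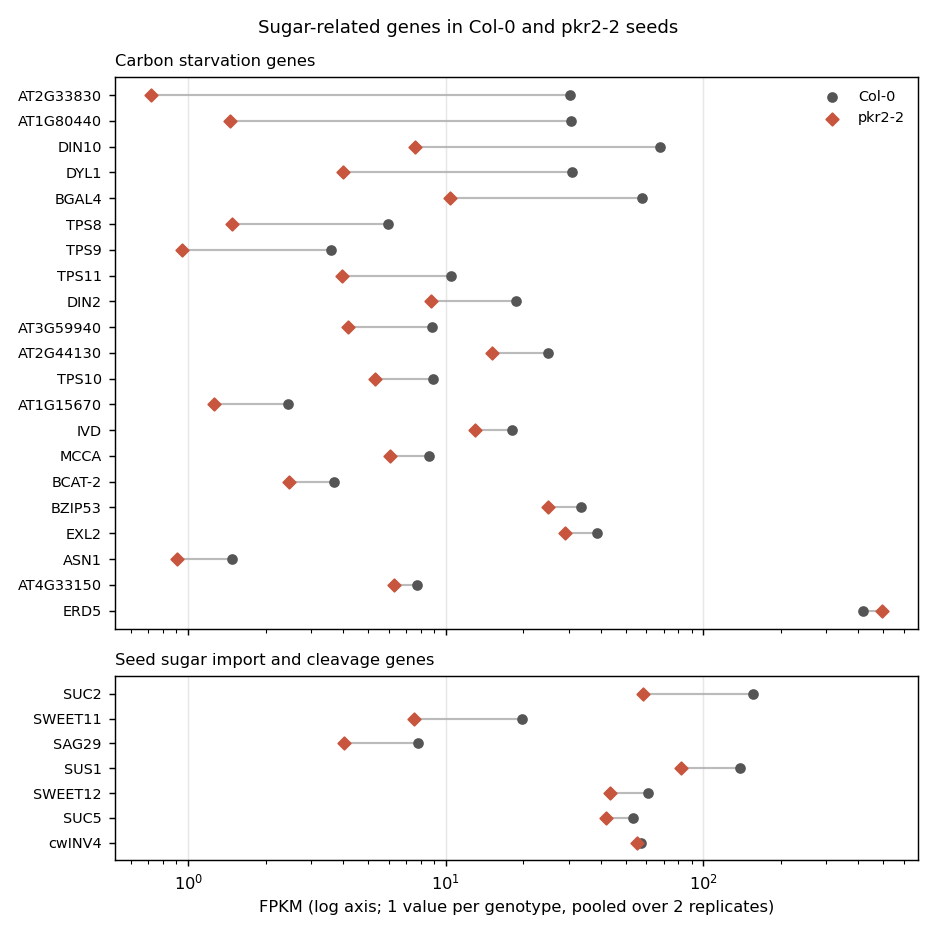
FPKM on a log axis of the measured carbon starvation and sugar import genes in Col-0 (circles) and *pkr2-2* (diamonds), 1 pooled value each. The diamonds lie left of the circles for 20 of 21 starvation genes and for all 7 import and cleavage genes, with the widest gap in AT2G33830.

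A few genes of the plant surface were much higher in *pkr2-2*, while most members of their list differed little. The cuticle is a layer of cutin, a polyester of hydroxylated fatty acids, covered and filled with waxes. Of 24 measured cutin, suberin and wax genes, 4 (16.7%) were at least 2-fold higher against 2.9% of all measured genes, none was lower, and 22 lay above Col-0. The median of 0.23 lies within the middle range of all measured genes (quartiles -0.19 and 0.24). AT5G33370, a GDSL lipase family gene, was at 0.979 FPKM in Col-0 and 27.5 FPKM in *pkr2-2*, 28.1-fold higher (21.2 to 37.4). It passed the filter only through its level in *pkr2-2*. The fatty acid hydroxylase genes *CYP86A7* and *CYP86A4* were at 1.57 and 14.9 FPKM and at 8.65 and 23.2 FPKM, and the lipase gene *LTL1* at 2.90 and 12.04 FPKM. In the regulators of the cuticle, *SHN3* (10.5 and 21.5 FPKM), *MYB16* (1.07 and 2.97 FPKM) and *MYB106* (0.800 and 1.71 FPKM) were higher by less than the call. *CER1*, which makes wax alkanes, was at 26.7 and 51.5 FPKM. The genes most expressed on this list differed little, such as *GPAT4* (140 and 149 FPKM) and *ABCG11* (139 and 145 FPKM).

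Wax ester and wax alcohol genes outside the list were chosen after their values were seen. *WSD1*, a wax ester synthase gene, was at 2.58 and 11.8 FPKM, and its relatives AT1G72110 and AT5G16350 were at 3.28 and 16.7 FPKM and at 1.13 and 9.08 FPKM. The fourth measured member of that family, AT5G12420, was at 2.09 and 1.00 FPKM, so the family did not move as a whole. *CER4*, which makes primary alcohols, was at 22.4 and 66.2 FPKM, and *CYP96A15*, a midchain alkane hydroxylase gene, at 9.95 and 37.9 FPKM.

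Auxin-responsive genes of the SAUR family, small proteins known to promote cell expansion, held many members past 2-fold. Of 37 measured, 11 (29.7%, against 2.9% of all measured genes) were at least 2-fold higher, none was at least 2-fold lower, and 30 lay above Col-0 (median 0.57). Among longer transcripts it was 9 of 32. AT2G21220 was at 5.89 FPKM in Col-0 and 52.1 FPKM in *pkr2-2*, 8.84-fold higher (7.39 to 10.6), and AT1G19830 at 21.8 and 68.6 FPKM. Most of the others were low, for example *SAUR63* at 1.04 and 4.59 FPKM and *SAUR24* at 0.871 and 3.48 FPKM. Among the 11, *SAUR20*, *SAUR23*, *SAUR24*, *SAUR29*, AT1G29430, AT1G29450 and AT3G09870 were under 1 FPKM in Col-0 and passed the filter only through *pkr2-2*. With a mean of at least 5 FPKM required, 3 SAUR genes were at least 2-fold higher. Several lie in tandem and are alike in sequence, so reads may be shared between copies. Of 18 measured genes with an IAA symbol, the repressors of auxin signalling, none was 2-fold apart, while 16 lay above Col-0 (median 0.34). *AXR3* and *SHY2*, repressors of this family under other symbols, were at 8.23 and 35.2 FPKM and at 1.18 and 6.72 FPKM (chosen after their values were seen).

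Several genes for proteins that act on the cell wall were at least 2-fold higher. Xyloglucan endotransglucosylases cut and rejoin xyloglucan chains, and expansins loosen the wall without cutting it. Of 41 measured genes of these families, 10 (24.4%, against 2.9%) were at least 2-fold higher and 1 (2.44%, against 1.88%) lower, *EXPA16*, with a median of 0.36. The summed level of all 66 genes of these families differed little, at 5728 FPKM in Col-0 and 6045 FPKM in *pkr2-2*. *XTH7* was at 57.5 and 129 FPKM, *EXPA10* at 11.95 and 29.1 FPKM, *EXLA2* at 8.46 and 30.7 FPKM and *XTH8* at 2.15 and 8.04 FPKM. Among 45 pectate lyase and pectin lyase-like genes 2 (4.44%, near the 2.9% of all) were at least 2-fold higher and none lower, with AT1G67750 at 13.2 and 66.9 FPKM. Pectin methylesterases and their inhibitors were split, with 3 of 68 (4.41%, against 2.9%) higher and 4 (5.88%, against 1.88%) lower (median 0.02). The higher ones included AT3G49220 at 19.7 and 44.6 FPKM, and the lower ones AT3G12880 at 17.44 and 5.88 FPKM and AT1G23200 at 6.39 and 1.66 FPKM. Among the higher pectin genes, the lyase-like AT3G07010 and *APPB1* and AT2G47050 were under 1 FPKM in Col-0 and passed the filter only through *pkr2-2*.

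Arabinogalactan proteins, heavily glycosylated proteins of the cell surface, were added as a family after the data were seen. Of 42 measured, 12 (28.6%, against 2.9% of all measured genes) were at least 2-fold higher and none lower (median 0.64). Among the 12, *AGP6* (0.591 and 3.37 FPKM) passed the filter only through *pkr2-2*. *AGP15* was at 705 FPKM in Col-0 and 1528 FPKM in *pkr2-2*, *AGP12* at 234 and 647 FPKM, *FLA13* at 64.3 and 193 FPKM and *FLA2* at 29.3 and 112 FPKM. *PRP2*, a proline-rich wall protein gene outside the family, was at 269 and 714 FPKM, and *CSLA01*, a mannan synthase gene, at 0.508 and 5.48 FPKM.

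Further longer transcripts among the 20 largest increases were on no list. AT5G11930, annotated as a thioredoxin superfamily protein, was at 2.52 and 31.7 FPKM, and AT1G04040, an acid phosphatase gene, at 3.51 and 23.2 FPKM. *CAF1a*, a deadenylase gene of mRNA decay, was at 1.48 and 11.2 FPKM, and *bZIP43* at 4.53 and 25.03 FPKM. *DIC2*, a mitochondrial dicarboxylate carrier gene, was at 7.32 and 32.3 FPKM, and *GLC*, an acyl-transferase family gene, at 5.21 and 23.9 FPKM. Most of these were under 6 FPKM in Col-0, which a ranking by log2 difference favours. Several of the largest decreases were likewise low in *pkr2-2*, such as AT2G33830 at 0.717 FPKM and AT1G80440 at 1.45 FPKM, so no contrast between the directions is drawn.

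**Figure D4:**
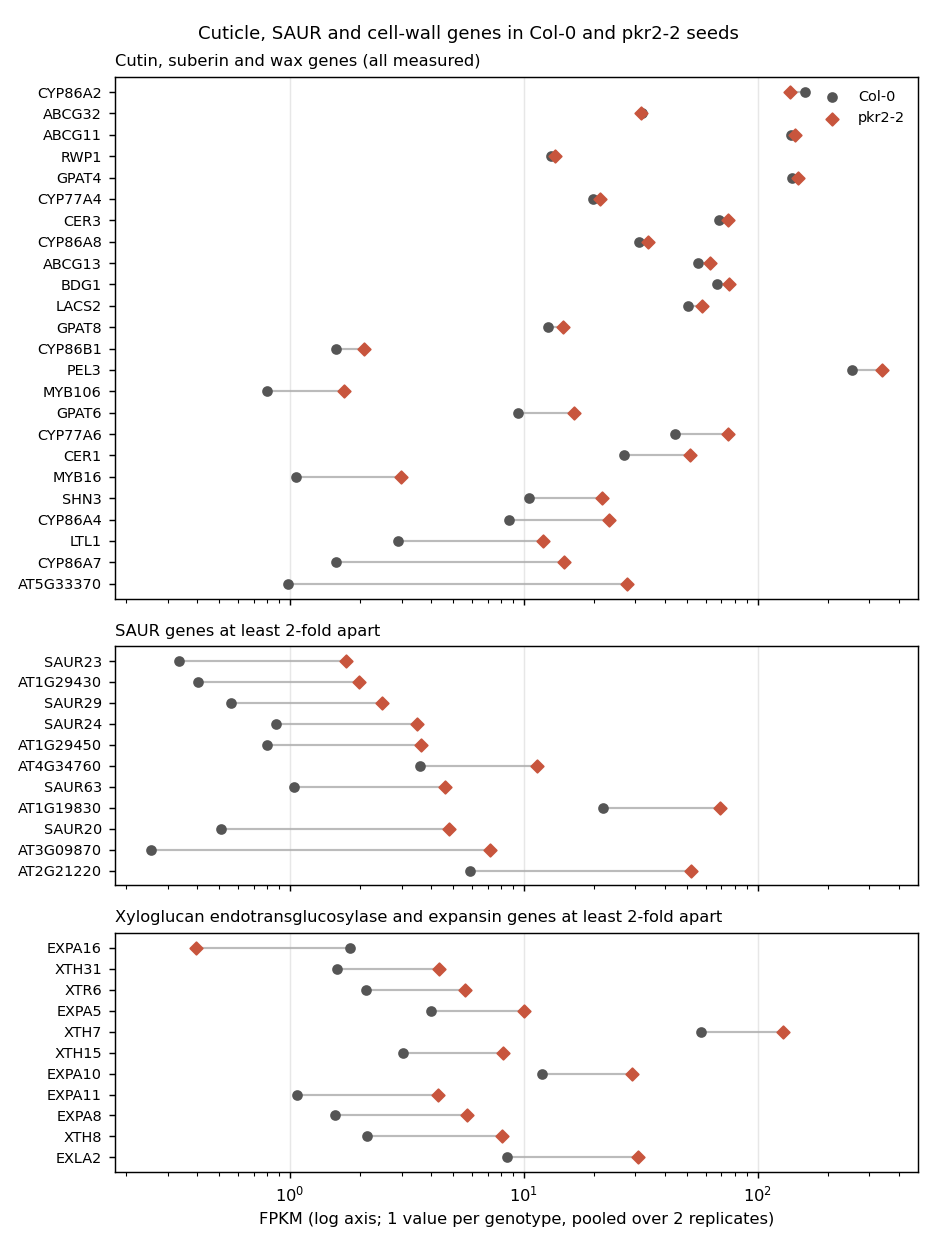
FPKM on a log axis in Col-0 (circles) and *pkr2-2* (diamonds), 1 pooled value each, of all measured cutin, suberin and wax genes, and of SAUR, xyloglucan endotransglucosylase and expansin genes at least 2-fold apart. Of 24 cuticle genes 22 lie to the right in *pkr2-2*, most by little, and *EXPA16* is the single gene of the lower panels that lies to the left.

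A second list added after the data were seen, the synthesis of methionine-derived glucosinolates, was mostly at low levels. Of 11 measured genes, 5 (45.5%, against 2.9%) were at least 2-fold higher and none lower (median 0.64). They were the chain elongation genes *IMD1* (2.41 and 10.5 FPKM), *IPMI1* (1.86 and 7.02 FPKM), *IPMI2* (3.72 and 8.71 FPKM) and *BCAT4* (0.492 and 2.59 FPKM), and *CYP83A1* (1.03 and 5.88 FPKM). *BCAT4* passed the filter only through its level in *pkr2-2*. The list was chosen on these data, so its share, too, is a description only. The regulator *MYB28* differed by 0.31. With a mean of at least 5 FPKM required, 2 of these genes were at least 2-fold higher.

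Genes that respond to touch, wounding and calcium held a few members past 2-fold. On the touch and wound list, 2 of 11 measured genes (18.2%, against 2.9%) were at least 2-fold higher, none was lower, and 9 lay above Col-0 (median 0.66). *TCH2*, a calmodulin-like gene, was at 84.2 and 210 FPKM, and *CML38* at 0.0515 and 2.56 FPKM, measured only through its level in *pkr2-2*. The zinc finger gene *STZ* was at 3.66 and 7.37 FPKM and *JAZ1*, a repressor of jasmonate signalling, at 20.5 and 33.1 FPKM, both under the call. Of 38 measured EF-hand genes, a family added after the data were seen, 6 (15.8%, against 2.9%) were at least 2-fold higher, among them *MSS3* (63.5 and 204 FPKM) and AT2G41090 (28.7 and 108 FPKM), and none lower.

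Some single genes of light signalling are given as values only, since they were picked after their values were seen and stand for no list. *HY5*, the bZIP factor that promotes light-grown development, was at 6.46 FPKM in Col-0 and 14.2 FPKM in *pkr2-2*, and its homolog *HYH* at 0.711 and 4.87 FPKM. *PIL1*, a phytochrome-interacting-factor-like gene, was at 0.758 and 3.72 FPKM, and the B-box genes *STH* and *BBX31* were at 13.6 and 31.3 FPKM and at 0.289 and 3.50 FPKM. *HYH*, *PIL1* and *BBX31* passed the filter only through *pkr2-2*. *ELIP1*, an early light-induced protein gene, was at 75.4 and 366 FPKM, 4.85-fold higher (4.64 to 5.07). It was the single gene at least 2-fold apart (1.61%, against 2.9% of all measured genes higher) among 62 measured nuclear genes for photosystems and light harvesting. Of these, 47 lay below Col-0 (median -0.17). *CAB1*, a light-harvesting gene of that group, was at 4156 and 2596 FPKM, the third largest loss in FPKM of any quantified gene.

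Stress lists moved in mixed directions. Of 9 measured cold response genes, 1 (11.1%, against 2.9% of all measured genes) was at least 2-fold higher, *ERD10* (10.6 and 27.9 FPKM). At least 2-fold lower were 2 (22.2%, against 1.88%), *COR15B* (4.39 and 1.28 FPKM) and *KIN2* (23.8 and 10.9 FPKM). All 5 measured heat shock genes lay above Col-0 (median 0.54). *HSP70*, at 4.70 and 12.7 FPKM, was the only one past 2-fold (20%, against 2.9%). The 8 measured abscisic acid response genes all lay above Col-0 by at most 0.60, and none was called. Among 52 ERF and DREB genes, 6 (11.5%, against 2.9% of all measured genes) were at least 2-fold higher and 3 (5.77%, against 1.88%) lower. AT1G01250 was at 2.32 and 18.4 FPKM and AT5G61590 at 32.5 and 5.23 FPKM, the extremes of that family. AT4G16750, among the higher ones, passed the filter only through its level in *pkr2-2*.

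Of genes that govern seed development, no regulator was past 2-fold. Embryo maturation regulators lay below Col-0 in 8 of 8 measured genes, but by at most 0.42 (median -0.27), with *LEC1*, the master regulator of embryo maturation, at 85.6 and 67.6 FPKM. Storage protein and oleosin genes were barely on at this stage, and all 11 were below Col-0. Of these, 3 were measured (median -0.91), and 1 (33.3%, against 1.88% of all measured genes) was at least 2-fold lower, *SESA4* (2.34 and 0.585 FPKM). *SESA1* was at 5.11 and 2.25 FPKM. Below the filter, *SESA3* was at 1.48 and 0.0539 FPKM, from about 31 and 1 fragments, and *OLEO1* at 0.924 and 0.207 FPKM, from about 25 and 5 fragments. *CRU2* and *CRU3*, from about 12 and 20 fragments in Col-0, were listed at 0 in *pkr2-2*. Gibberellin synthesis and breakdown genes were lower in 10 of 11, none by 2-fold (median -0.33), with *KAO2* at 18.1 and 10.9 FPKM and *GA20OX5* at 20.7 and 12.6 FPKM. None of 12 measured seed size regulators was called. *CKX2*, a cytokinin-degrading enzyme gene of the endosperm, differed most, at 219 and 139 FPKM. None of 8 type I MADS-box genes of the endosperm was called, and they ranged from *AGL90* (6.004 and 3.96 FPKM) to AT5G26630 (11.3 and 19.0 FPKM).

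Lists of seed coat programmes held no gene past 2-fold. None of 17 measured flavonoid and proanthocyanidin genes was 2-fold apart (median 0.14). *TT7*, a flavonoid hydroxylase gene, was at 718 and 982 FPKM, and *BAN*, the anthocyanidin reductase gene, at 630 and 625 FPKM. None of 17 measured mucilage genes was called. *CESA5*, a cellulose synthase gene, was at 7.50 and 14.2 FPKM, and *ARA12*, a subtilase gene, at 3333 and 2119 FPKM. None of 18 measured cell division genes was 2-fold apart (median -0.04), with values from -0.51 for *CDKB1;1* to 0.49 for *AUR2*. The 13 measured Polycomb group genes, which encode the silencing complexes that PKL is linked to, were likewise uncalled (median 0.10). *RING1A* differed most, at 3.40 and 1.66 FPKM. Of the 4 measured genes of the FLC and MAF family, repressors of flowering, *MAF5* was listed at 0 in Col-0 and at 3.15 FPKM in *pkr2-2*, and *MAF1*, *AGL31* and *MAF3* differed by 0.18, 0.14 and -0.08. *MAF5* passed the filter only through its level in *pkr2-2*.

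The most abundant quantified transcripts of the seed were little changed. The 10 highest genes differed by -0.28 to 0.50. This ranking, and those of gains and losses in FPKM, leave out 4 genes marked as too deep to quantify. They included AT1G56100, an invertase/pectin methylesterase inhibitor gene at 26925 FPKM in Col-0 and 25987 FPKM in *pkr2-2*. The largest gain in FPKM was that of *LTP6*, a lipid transfer protein gene, at 17193 and 23364 FPKM. *LTP3* was at 8812 and 11085 FPKM, *LTP4* at 1256 and 2659 FPKM and the thionin gene *THI2.1* at 3115 and 4412 FPKM, of which only *LTP4* passed 2-fold (2.12-fold). *DELTA-VPE*, a seed coat protease gene, had the second largest loss, at 9572 and 7903 FPKM. The 318 measured nuclear genes annotated as ribosomal proteins held 2 at least 2-fold lower (0.629%, against 1.88% of all measured genes) and none higher (median -0.07).

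Genes at least 2-fold apart lay on all 5 nuclear chromosomes in similar shares, from 2.94% of measured longer transcripts on chromosome 5 to 3.76% on chromosome 4, which carries *PKR2*. No longer chloroplast-encoded (29) or mitochondrion-encoded (9) transcript was 2-fold apart. At any length, 4 of 58 chloroplast-encoded genes (6.9%, against 2.9% of all measured genes) were at least 2-fold higher and 3 (5.17%, against 1.88%) lower. All 7 were short.

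To see whether the same genes differ when *PKR2* is lost where *PKL* is also mutated, the double mutant *pkr2-2;pkl-10* was compared with *pkl-1*. This pair shares no library with the first comparison, but its genotypes carry different *PKL* alleles, and *PKL* itself was at 18.1 FPKM in *pkl-1* and 2.77 FPKM in the double mutant. *PKR2* was at 2.62 FPKM in *pkl-1* and 0.137 FPKM in the double mutant. Of 330 longer transcripts at least 2-fold higher in *pkr2-2* and measured in both tables, 273 (82.7%) were higher in the double mutant than in *pkl-1*, and 52 (15.8%) at least 2-fold, while 4 (1.21%) were at least 2-fold lower. The background for all 16276 genes was 55.3% higher at all and 0.866% at least 2-fold. Of 184 genes at least 2-fold lower in *pkr2-2*, 142 (77.2%) were lower and 42 (22.8%) higher in the double mutant, against 44.7% and 55.3% of all genes, and 47 (25.5%) at least 2-fold, against 1.16%.

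The evening genes were lower in this comparison too. All 8 were below *pkl-1* in the double mutant, 5 at least 2-fold, with a median of -1.48. *FKF1* was at 9.31 FPKM in *pkl-1* and 0.582 FPKM in the double mutant, *PRR5* at 10.8 and 0.372 FPKM and *GRP7* at 1020 and 103 FPKM. All 10 morning genes were higher (median 0.64), with *LHY* at 2.83 and 34.0 FPKM. Of the 9 starvation genes lower in *pkr2-2*, all were below *pkl-1* in the double mutant, but 3 of the list were at least 2-fold lower and the list's median was -0.09. *DIN10* was at 32.8 and 8.10 FPKM, whereas *TPS8* was at 7.02 and 6.92 FPKM. *STP1* differed by -0.31 and *SUC2* by -0.55. The difference between the comparisons was not tested.

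Of 24 cuticle genes, 2 were at least 2-fold higher in the double mutant and none lower (median 0.17). AT5G33370 was at 69.9 FPKM in *pkl-1* and 157 FPKM in the double mutant. *CYP86A7* was at 14.1 and 30.3 FPKM. Outside the list, *WSD1* was at 11.4 and 29.1 FPKM and *CER4* at 28.9 and 61.8 FPKM. SAUR genes had a median of 0.12 and 3 of 37 were at least 2-fold higher. AT2G21220, 8.84-fold higher in *pkr2-2*, was at 51.5 FPKM in *pkl-1* and 58.3 FPKM in the double mutant, a difference of 0.17. Arabinogalactan protein genes had a median of -0.01, with 1 higher and 1 lower, and *FLA2* was at 107 and 124 FPKM. A small difference here does not tell whether *pkl-1* itself differs from Col-0, which was not examined. *MAF5* was at 1.57 FPKM in *pkl-1* and 31.8 FPKM in the double mutant, and *ELIP1* at 87.0 and 296 FPKM. *HY5* was at 9.77 and 23.5 FPKM and *SADHU3-2* at 153 and 33.8 FPKM, in the same direction as in *pkr2-2*. Organelle-encoded genes differed between the comparisons, with medians of -0.90 for the chloroplast and -1.02 for the mitochondrion here and 0.12 and 0.27 in *pkr2-2* against Col-0.

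**Figure D5:**
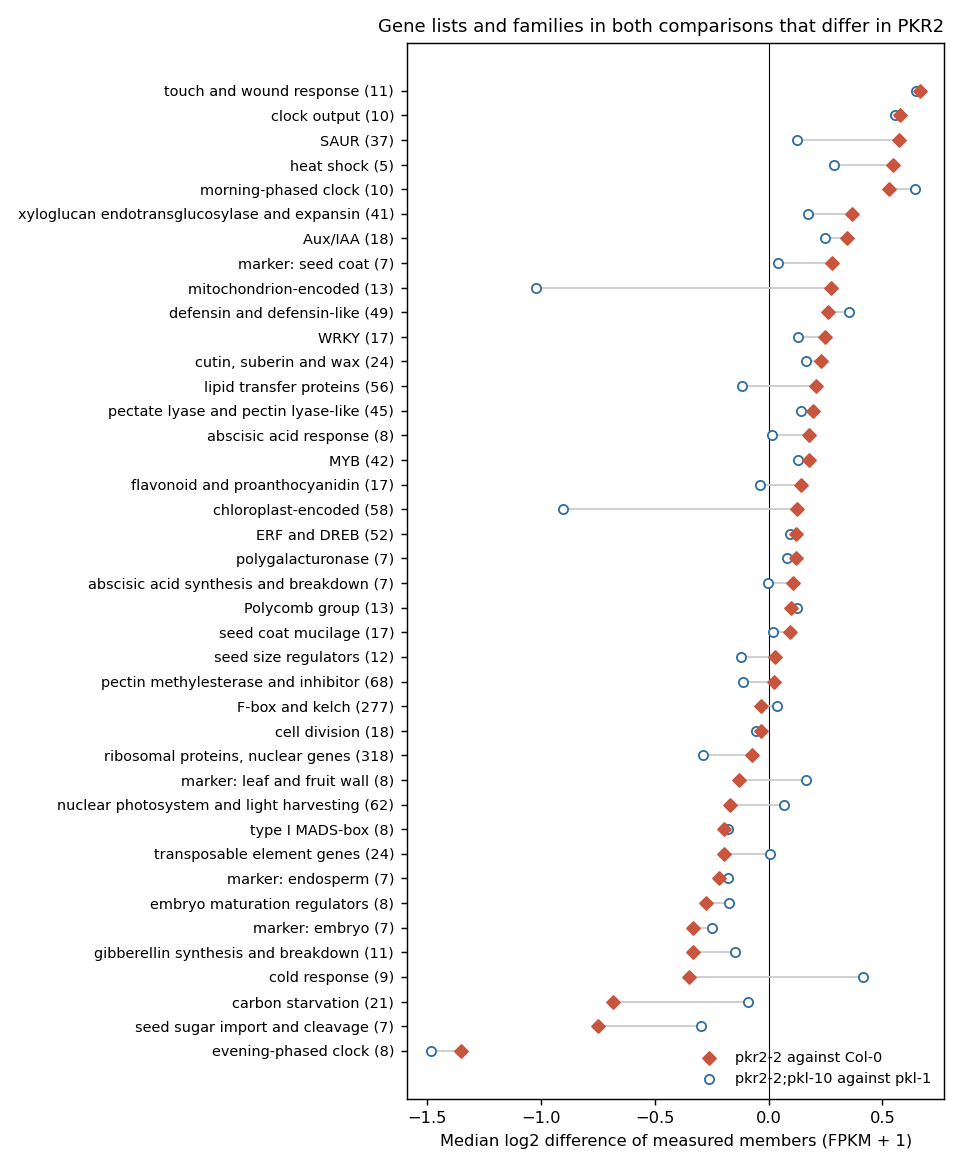
Median log2 difference of each gene list or family with 5 or more measured genes (number in parentheses), without those added after the data were seen, in *pkr2-2* against Col-0 (diamonds) and in *pkr2-2;pkl-10* against *pkl-1* (open circles), on the scale of FPKM + 1. The lists shown were also chosen with earlier results of these data known. The evening-phased clock list is the lowest in both (-1.35 and -1.48), whereas carbon starvation (-0.69 and -0.09) and SAUR (0.57 and 0.12) lie nearer to 0 in the second.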

How the data were processed

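Seed mRNA of 4 genotypes, in 2 biological replicates each, was sequenced from both fragment ends. Before deposit, low-quality sequence was removed by the authors (Fastp), alignment was to TAIR10.1 (TopHat2 2.1.1), and Cufflinks gave FPKM with the geometric scaling, run apart for each of 5 comparisons. The deposited FPKM values are pooled over the replicates of a genotype. The tables also hold the authors' fold changes, test statistics, p-values and q-values, which were not used. The number of unused columns of per-sample values is 0.

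The log2 difference was computed with a pseudocount of 1 FPKM, among genes with a mean of at least 1 FPKM. Left out were 4 genes marked as too deep to quantify and 1 row without a gene ID. Values were compared only within a table. Because no replicate values exist in the tables, no test was run. Fragments were estimated from single-transcript genes of 2000 to 6000 nucleotides, in which the lowest FPKM values are multiples of 1 fragment, with 250 nucleotides taken off each transcript's length. The counting interval of a fold is exact (Clopper-Pearson) on these estimates and does not cover variation between plants. The counting does not state use of strand.

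Gene names, products, positions and lengths come from RefSeq TAIR10.1, in which 38158 of 38209 genes were found. Chloroplast and mitochondrial genes were taken by chromosome. Genes named are *PKR2* and *PKL*, the 10 largest differences in each direction among genes with a mean of at least 5 FPKM, the 5 largest gains and losses in FPKM, and in each list the members past 2-fold or with the largest differences. The first part of that rule was repeated for the 20 largest in each direction among transcripts of at least 600 nucleotides, added after the data were seen. Members, lists and rules were chosen with earlier results of these data known. Alternatives were pseudocounts of 0.1 and 5 FPKM, no filter, a mean of at least 5 FPKM, centring on the nuclear genes and a 4-fold call. The calling step was run on simulated counts with no variation between replicates. It therefore does not show how many calls could arise from replicate spread. Figures were drawn with matplotlib 3.10.9 and values computed with Python 3.11.15, pandas 2.3.3 with numpy 2.4.6, and scipy 1.17.1.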

Additional observations from a re-analysis of the deposited data

Results flagged for a closer look

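With longer transcripts measured in both tables, 5 genes were at least 2-fold apart in opposite directions in the 2 comparisons that differ in *PKR2*. The difference between the comparisons was not tested, and each rests on 1 pooled value per genotype. AT4G00975, annotated as other RNA, was higher in *pkr2-2* than in Col-0 (log2 difference 1.76, at 105 against 30.3 FPKM) and lower in the double mutant than in *pkl-1* (-4.29, at 0.191 against 22.3 FPKM). AT2G45685, also annotated as other RNA, had differences of 1.77 and -1.91, and AT3G00620 of 1.03 and -2.42. AT5G10580, a gene of unknown function, had 1.08 and -1.25. AT4G00975, AT2G45685 and AT3G00620 overlap a gene on the opposite strand for 60.7%, 96.7% and 55.5% of their span, and reads of such pairs cannot be told apart. AT1G68600, an aluminum-activated malate transporter family gene, was the single gene of the opposite kind, with -1.38 and 1.44.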

How the results depend on the processing

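No paired analysis was possible because the tables hold 1 pooled value per genotype, and for the same reason no replicate could be left out. The number of genes at least 2-fold higher and lower (508 and 330) became 164 and 133 with a pseudocount of 5 FPKM, 253 and 176 with a mean of at least 5 FPKM, and 99 and 86 at a 4-fold call. It was 348 and 216 with transcripts of at least 600 nucleotides, an alternative chosen after seeing the data. No filter gave 583 and 375, a pseudocount of 0.1 FPKM 762 and 486, and centring, which removed a median of 0.02, 493 and 337. With a pseudocount of 5 FPKM, the genes past 2-fold numbered 3 for evening clock, 5 for carbon starvation, 1 for sugar import, 1 for glucosinolate synthesis, 3 for SAUR and 3 for xyloglucan endotransglucosylase and expansin. A mean of at least 5 FPKM left 2 glucosinolate, 3 SAUR and 6 xyloglucan endotransglucosylase and expansin genes, since fewer genes were then tested. With a pseudocount of 0.1 FPKM, 7 cuticle genes were past 2-fold. *PKR2* was at -3.56 with a pseudocount of 0.1 FPKM and at -0.64 with 5 FPKM, where its low level limits the value. Of 633 further values recomputed for 139 single genes and list medians, 158 moved by more than the margin set from their counting intervals. No called value changed sign, but a pseudocount or centring by 0.02 cannot reverse a called gene, so this tested nothing. Depth limits genes near 1 FPKM and transcripts under 600 nucleotides most.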
